A study of Rattus norvegicus with 4 samples.

Results

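The genes described here are 47 lysosome and autophagy genes, taken by symbol from a fixed list, out of 13261 genes measured in rat glomeruli. Only genes with a row in the expression table were taken, and each of the 47 had exactly 1 row. They fall into 3 subgroups: 19 lysosome genes (hydrolases, membrane and lipid handling proteins, and transcription factors), 6 subunits of the lysosomal proton pump and 22 autophagy genes. The tissue came from male Wistar rats of 150 to 175 g that had received Adriamycin (ADR) into a vein; this drug, also called doxorubicin, injures podocytes and causes heavy protein loss in urine in rodents. The 4 samples form a single group, named replicates 1 to 4 here. The labels give neither the ADR dose nor the age, name more than one harvest day without assigning it, and do not say that each sample was a separate animal, so p-values measure the spread between these samples, which may be technical. Untreated rats and the other treatments that the labels mention were not analysed here, so no value below is an effect of ADR. What the samples allow is a description of each gene's level, of its spread over the 4 replicates, and of how the 3 subgroups differ in that spread.

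Lysosomes are acidic compartments in which hydrolases break down proteins, lipids and glycans delivered by endocytosis or by autophagy. A vacuolar proton pump, made of a membrane V0 sector and a cytosolic V1 sector, keeps them acidic. In autophagy the ULK1 kinase complex and a lipid kinase complex around Beclin 1 start a membrane, a ubiquitin-like conjugation system attaches ATG8 family proteins to it, and receptors tether cargo to those proteins until the closed vesicle fuses with a lysosome. Podocytes, the non-dividing epithelial cells of the filtration barrier, are known for a high basal rate of autophagy. TFEB and TFE3 are related transcription factors that bind a short element, the CLEAR element, near the start of many lysosomal and some autophagy genes.

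The core letters of that element, CACGTG, and an extended form, TCACGTGA, were searched in promoters of 300 bases (250 before to 50 after the annotated start) from RefSeq, build GRCr8. Each motif reads the same on both strands, and every TCACGTGA also contains a CACGTG. Promoters were matched for 39 of the 47 genes. Those of Ctsb, Hexa, Psap, Atp6v1b2, Atp6v1h, Becn1, Atg9a and Map1lc3a were not matched. CACGTG was found in 8 of 39 promoters (20.5%), against 6.42% of all 33469 promoters in the table and 9.54% of the 9623 that belong to genes of the expression table. TCACGTGA was found in 5 of 39 (12.8%), against 0.777% and 1.78%. By subgroup, CACGTG was found in 4 of 16 lysosome, 1 of 4 proton pump and 3 of 19 autophagy promoters. A match describes letters in a window and is not evidence of binding. The 5 promoters with the extended form are shown, 5′ to 3′ on the strand of the gene, because they come from all 3 subgroups and because their genes are set side by side further on; capitals mark each CACGTG or TCACGTGA.
Ctsd (chr1:206968772-206969071, minus strand): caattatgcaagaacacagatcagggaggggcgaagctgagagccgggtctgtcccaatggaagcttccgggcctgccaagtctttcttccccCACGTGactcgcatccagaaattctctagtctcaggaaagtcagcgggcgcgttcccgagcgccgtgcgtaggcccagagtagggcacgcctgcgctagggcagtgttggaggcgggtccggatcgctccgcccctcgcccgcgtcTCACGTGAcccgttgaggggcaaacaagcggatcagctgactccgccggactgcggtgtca
Lamp1 (chr16:83075014-83075313, minus strand): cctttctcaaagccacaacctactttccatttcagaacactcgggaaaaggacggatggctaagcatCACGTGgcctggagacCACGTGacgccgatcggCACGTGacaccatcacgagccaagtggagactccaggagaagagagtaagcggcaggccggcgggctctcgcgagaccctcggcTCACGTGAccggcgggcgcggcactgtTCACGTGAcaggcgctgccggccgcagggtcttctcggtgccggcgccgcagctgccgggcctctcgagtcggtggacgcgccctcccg
Mcoln1 (chr12:6358008-6358307, plus strand): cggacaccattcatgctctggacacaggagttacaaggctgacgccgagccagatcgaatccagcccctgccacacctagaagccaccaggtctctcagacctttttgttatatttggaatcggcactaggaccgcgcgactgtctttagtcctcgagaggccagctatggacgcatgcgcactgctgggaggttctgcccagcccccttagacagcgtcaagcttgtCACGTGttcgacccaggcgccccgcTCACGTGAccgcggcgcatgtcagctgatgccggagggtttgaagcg
Atp6v0d1 (chr19:50357199-50357498, minus strand): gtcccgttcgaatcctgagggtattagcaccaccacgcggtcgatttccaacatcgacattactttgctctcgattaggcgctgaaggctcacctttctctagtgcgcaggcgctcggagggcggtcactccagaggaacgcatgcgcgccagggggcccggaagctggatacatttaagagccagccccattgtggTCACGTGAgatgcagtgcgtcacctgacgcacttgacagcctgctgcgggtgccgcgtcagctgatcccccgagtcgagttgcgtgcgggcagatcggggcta
Atg3 (chr11:69159231-69159530, minus strand): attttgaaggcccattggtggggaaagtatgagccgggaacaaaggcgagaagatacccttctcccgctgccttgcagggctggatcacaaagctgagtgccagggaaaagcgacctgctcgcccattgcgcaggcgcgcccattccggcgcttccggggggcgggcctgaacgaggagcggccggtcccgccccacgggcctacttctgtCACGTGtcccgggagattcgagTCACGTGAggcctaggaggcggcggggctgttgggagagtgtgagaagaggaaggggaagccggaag
In Lamp1 the window holds 5 matches, 2 of them extended, whose CACGTG begins 65 and 38 bases before the start. The CACGTG within the extended match begins 10 bases before the start in Ctsd, 16 in Atg3 and 52 in Atp6v0d1. In Mcoln1 it begins 4 bases after the start. Glb1, Atg5 and Atg14 hold only the shorter form.

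Levels are given in CPM, which are reads scaled to the same total in each replicate. The replicates held 13566962 to 16207027 reads, the 47 genes had 200 to 27743 reads each, and the median gene of the table had 439. Mitochondrial transcripts took 7.63% to 12.8% of reads, with the highest share in replicate 2. For the glomerular label, 12 of 12 podocyte markers were measured, at a sum of 6820 to 12356.5 CPM. Of the endothelial markers 7 of 8 were measured, and of the mesangial markers 6 of 6. All 11 proximal tubule markers were measured too, at a sum of 3599 to 7133 CPM, and 11 of 11 macrophage and leukocyte markers at 1231 to 1558 CPM. None of the 13261 genes in the table was at 0 in any replicate, so being measured does not check the glomerular label. In bulk tissue, fewer cells of a type and less RNA per cell cannot be told apart.

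Most lysosome and autophagy genes differed between the 4 replicates by more than the counting of reads allows. Among roles with more than 2 genes, the hydrolases differed most. Reads of 41 of the 47 genes were spread more widely than Poisson sampling (chi-square index of dispersion, Benjamini-Hochberg adjusted over all genes), where the background over all genes was 69.5%. The 41 comprised 19 of 19 lysosome, 6 of 6 proton pump and 16 of 22 autophagy genes. This test follows depth: of genes with a mean of at least 1000 reads, 91.6% were called over the whole table and 32 of 32 in this set, and below that depth 61.6% were called over the whole table and 9 of 15 in this set. The 6 genes that did not pass were Atg5, Atg7, Atg12, Atg14, Wipi1 and Wipi2, all of the autophagy subgroup. Scaling by trimmed means or by median ratios left 36 of 47, with 18 lysosome and 12 autophagy genes, against 68.7% and 68.8% of all genes. With mitochondrial genes out of the total 37 passed, with 5 pump and 13 autophagy genes, against 70.2% of all genes. A spread beyond that of genes of like abundance was called for none of the 47 by limma's test of residual variance after adjustment (smallest adjusted p = 0.912); over all genes it also called none (0%). At an unadjusted p under 0.05 it named Lgmn and Optn, 2 of 47, where the background was 5.47%. An alternative with the dispersion trend held fixed named the same 2 genes at an adjusted threshold of 0.05, where the background was 7.59%. Both shares are near their backgrounds.

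**Figure D1:**
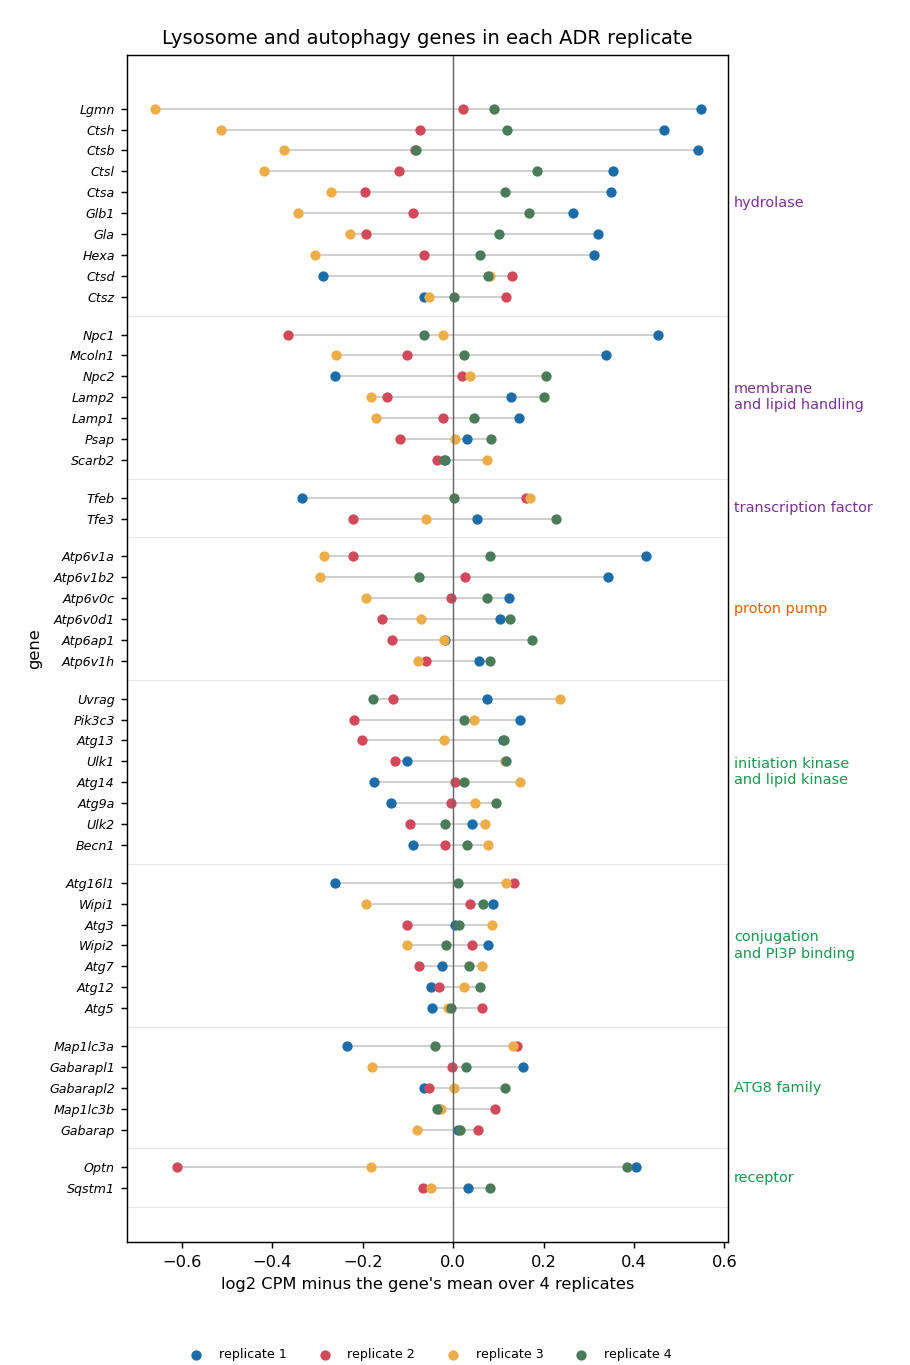
Each row is 1 of the 47 genes, grouped by role, and each point is the log2 CPM of 1 replicate minus that gene's mean over the 4 replicates; grey lines join the lowest and highest replicate. Among the hydrolases, replicate 1 lies furthest right and replicate 3 furthest left in 8 of 10 genes, whereas most autophagy genes stay near 0.

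Of the 10 hydrolases, 8 were highest in replicate 1 and the same number were lowest in replicate 3. Over all genes, 27.7% were highest in replicate 1 and 19.6% lowest in replicate 3. The median SD of log2 CPM over the hydrolases was 0.28, against 0.18 over all genes, and 9 of 10 lay above the all-gene median. Legumain (Lgmn, ENSRNOG00000007089), an asparaginyl endopeptidase that also processes cathepsins, had 803, 558, 347 and 585 CPM in replicates 1 to 4. Its highest replicate was 2.31-fold its lowest, with a mean of 573 ± 186 CPM (SD, n = 4). Replicate 1 stood above the rest, replicate 3 below, and replicates 2 and 4 lay close together. The fixed-trend test gave Lgmn an adjusted p of 0.0301, and limma's unadjusted p was 0.0431. That call rested on replicates 1, 3 and 4, since without them the adjusted p became 0.274, 0.634 and 0.0786; without replicate 2 it was 0.00801. Cathepsin B (Ctsb), a cysteine protease, had 1904, 1234, 1010 and 1235 CPM and an SD of 0.39 on the log2 scale. Replicate 1 alone was high for Ctsb, and replicates 2 and 4 were almost equal. Its fixed-trend adjusted p of 0.093 missed the threshold, and Ctsb passed it with replicate 2 left out.

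Cathepsin L (Ctsl), a cysteine protease linked in podocytes to cleavage of cytoskeletal regulators, had 1471, 1059, 861 and 1308 CPM. Replicates 1 and 4 were the higher pair, and the SD was 0.34 on the log2 scale. Alpha-galactosidase A (Gla), the enzyme lacking in Fabry disease, had 25.4, 17.8, 17.4 and 21.8 CPM, again with replicate 1 highest and replicate 3 lowest. Cathepsin A (Ctsa), cathepsin H (Ctsh), the beta-hexosaminidase alpha subunit (Hexa) and beta-galactosidase (Glb1) shared that order of extremes. Their highest replicate was 1.52- to 1.97-fold their lowest, with Ctsh at the upper end.

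Cathepsin D (Ctsd) and cathepsin Z (Ctsz) differed from the other hydrolases in being lowest in replicate 1 and highest in replicate 2. The aspartic protease Ctsd had 547, 731, 707 and 705 CPM, a mean of 673 ± 84.6 (SD, n = 4). Replicate 1 stood alone below the 3 others, which lay between 705 and 731 CPM. Ctsz, a carboxypeptidase, had 58.7, 66.6, 59.2 and 61.5 CPM, almost as low in replicate 3 as in replicate 1, and its SD of 0.08 on the log2 scale was the smallest among the hydrolases.

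Membrane and lipid handling genes of the lysosome varied less, with a median SD of 0.19 on the log2 scale, and did not share 1 order of replicates. Niemann-Pick C1 (Npc1), which exports cholesterol from lysosomes, had 35.5, 20.1, 25.5 and 24.8 CPM, high in replicate 1 and low in replicate 2. Its soluble partner Npc2 had 140, 170, 172 and 194 CPM, lowest in the replicate where Npc1 was highest (chosen for description after its values were seen). Prosaposin (Psap), the precursor of activators of sphingolipid breakdown, had 1753, 1584, 1721 and 1820 CPM, an SD of 0.08. Scarb2, the sorting receptor for glucocerebrosidase, had 220, 217, 235 and 220 CPM. These 4 values of Scarb2 spanned 1.08-fold, and its SD of 0.05 lay at percentile 3.70 of all genes. Lamp1 and Lamp2, the abundant glycoproteins of the lysosomal membrane, had 871, 775, 699 and 813 CPM and 213, 177, 172 and 225 CPM. Both were higher in replicates 1 and 4 than in 2 and 3. Mcoln1, a calcium channel of the lysosomal membrane, had 70.2, 51.7, 46.4 and 56.4 CPM and followed the order of most hydrolases.

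The transcription factors did not move together across replicates. Tfeb had 36.3, 51.1, 51.5 and 45.8 CPM, a mean of 46.2 ± 7.08 (SD, n = 4), and was lowest in replicate 1, where most hydrolases were highest. Tfe3 had 22.8, 18.8, 21.0 and 25.7 CPM, lowest in replicate 2 and highest in replicate 4. The highest replicate was 1.42-fold the lowest for Tfeb and 1.37-fold for Tfe3. These are transcript levels, and the activity of both factors is known to be set largely by their location in the cell. The genes whose promoters are printed above did not share an order either: Ctsd was lowest in replicate 1, Lamp1 and Mcoln1 were highest there, Atp6v0d1 was highest in replicate 4 and Atg3 in replicate 3.

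**Figure D2:**
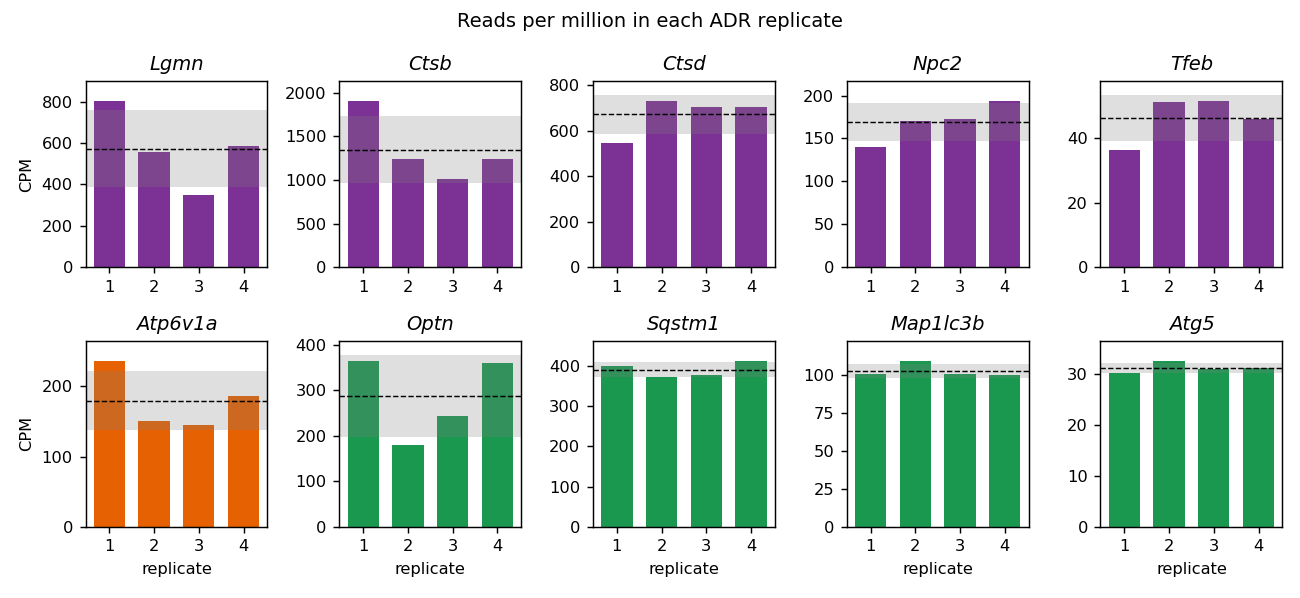
Bars give the CPM of 10 genes in replicates 1 to 4, on axes that start at 0; the dashed line is the mean and the grey band the mean ± SD over the 4 replicates. Lgmn, Ctsb and Atp6v1a are highest in replicate 1, Ctsd, Npc2 and Tfeb are lowest there, Optn is lowest in replicate 2, and Sqstm1, Map1lc3b and Atg5 are nearly level.

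Proton pump genes were higher in replicates 1 and 4 than in replicates 2 and 3 on the whole, with 2 of 6 above the all-gene median SD. All 6 lay below their own mean in replicate 3, and 5 of 6 lay above it in replicate 1 and again in replicate 4. Over all genes, 42.4% lay below their mean in replicate 3, and 47% and 57.2% lay above it in replicates 1 and 4. The catalytic V1 subunit Atp6v1a had 237, 151, 144 and 186 CPM, an SD of 0.33 on the log2 scale and a highest replicate 1.64-fold the lowest. Replicate 1 was highest for this gene, as it was for Lgmn and Ctsb. The proton-carrying ring subunit Atp6v0c had 318, 291, 255 and 308 CPM. The regulatory V1 subunit Atp6v1h had 73.6, 67.9, 67.1 and 74.9 CPM and the smallest SD of the 6, 0.08. The V1 subunit Atp6v1b2, the V0 subunit Atp6v0d1 and the accessory protein Atp6ap1 had fold ranges of 1.56, 1.22 and 1.24. No pump gene passed the fixed-trend test, against 7.59% of all genes, so nothing is read from that count.

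Autophagy genes were the most even subgroup: 3 of 22, namely Atg16l1, Uvrag and Optn, had an SD above the all-gene median. Among genes that start the membrane, Becn1, the scaffold of the lipid kinase complex, had 123, 129, 138 and 134 CPM and the smallest SD of these 8 genes, 0.07 on the log2 scale. Ulk1, the initiating kinase, had 65.5, 64.4, 76.2 and 76.2 CPM, so that replicates 3 and 4 were level and above the other pair. Its paralogue Ulk2 had 76.7, 69.7, 78.2 and 73.5 CPM. Uvrag, a Beclin 1 partner, had the largest SD of the 8, 0.19, from 122, 105, 136 and 102 CPM. Atg14, which directs the lipid kinase to the forming membrane, had 16.4, 18.6, 20.6 and 18.9 CPM and was the only gene of these 8 within counting noise (chi-square, adjusted p = 0.11). Atg13, Atg9a and Pik3c3, the catalytic lipid kinase, spanned 1.18- to 1.29-fold between replicates.

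In the conjugation system, 2 of 7 genes passed the counting test and 5 did not; it called 69.5% of all genes and 61.6% of those under 1000 reads. Atg5, joined to Atg12 to form part of the conjugating enzyme, had 30.2, 32.6, 30.9 and 31.1 CPM, an SD of 0.05 and the smallest spread of all 47 genes. The E1-like enzyme Atg7 had 33.2, 32.0, 35.2 and 34.6 CPM. For these genes the chi-square adjusted p was 0.706 (Atg5) and 0.451 (Atg7), so a difference between replicates was not detectable at this depth; that does not show the levels to be equal. Wipi1, which reads PI3P on the membrane, had 15.8, 15.3, 13.0 and 15.6 CPM, and Wipi2 and Atg12 spanned 1.13- and 1.08-fold. Atg3, the E2-like enzyme, had 81.3, 75.5, 86.1 and 81.8 CPM and passed the counting test narrowly (adjusted p = 0.0177, chi-square). Atg16l1, which places the conjugating enzyme on the membrane, had 39.3, 51.8, 51.1 and 47.5 CPM, low in replicate 1 in the same way as Tfeb and Ctsd.

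None of the 5 ATG8 family genes had an SD above the all-gene median. All 5 passed the counting test, as did 91.6% of all genes with at least 1000 reads. Map1lc3b, the LC3 gene most used as an autophagosome marker, had 101, 110, 101 and 100 CPM, with replicate 2 slightly apart. Map1lc3a had 108, 140, 139 and 124 CPM and was the most variable of the family, with an SD of 0.18 and its low value in replicate 1. Gabarap had 228, 235, 214 and 229 CPM, and Gabarapl2 80.7, 81.4, 84.5 and 91.4 CPM. Gabarapl1 had 216, 193, 171 and 198 CPM, so it alone in the family was highest in replicate 1 and lowest in replicate 3, as most hydrolases were.

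The cargo receptors Sqstm1 and Optn differed from each other in spread. Sqstm1 (p62), itself degraded by autophagy as a protein, had 400, 373, 377 and 413 CPM, a mean of 391 ± 18.9 (SD, n = 4) and an SD of 0.07 on the log2 scale. Optn (optineurin, ENSRNOG00000017941), which recruits ATG8 proteins to damaged mitochondria and other cargo, had 365, 181, 243 and 360 CPM, a mean of 287 ± 90.7 (SD, n = 4). Replicates 1 and 4 were nearly equal and 2.02-fold (replicate 1) above replicate 2, and replicate 3 lay between. Its SD of 0.49 was at percentile 93.2 of all genes, beside percentile 93.7 for Lgmn. The fixed-trend test gave Optn an adjusted p of 0.00999, and limma's unadjusted p was 0.0295. The call was lost without replicate 2 (adjusted p = 0.402) and without replicate 4 (0.0645), and was kept without replicate 1 (0.00891) or 3 (0.0320). Podocyte markers moved with Optn: 12 of 12 were highest in replicate 1 and lowest in replicate 2, and their median shifts from the gene mean were 0.47, -0.58, -0.06 and 0.21 on the log2 scale. Mesangial markers were also low in replicate 2, where 4 of 6 had their lowest value, and 4 of 6 were highest in replicate 4. The part of either cell type in the Optn values was not tested.

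**Figure D3:**
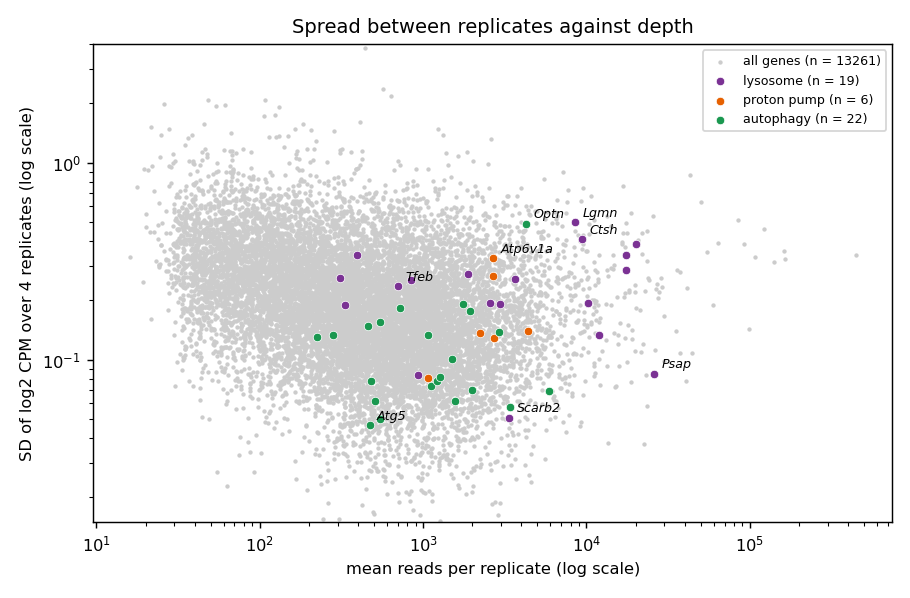
Each point is a gene, with its mean reads per replicate (log axis) against the SD of its log2 CPM over 4 replicates (log axis); grey points are all 13261 genes and coloured points the 3 subgroups. Lgmn and Optn have the largest SD of the lysosome and autophagy genes, respectively, and Scarb2 and Atg5 the smallest.

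Set side by side, the lysosome genes varied most between replicates and the autophagy genes least, with the proton pump between. The median SD of log2 CPM was 0.25 for lysosome, 0.14 for proton pump and 0.09 for autophagy genes, and 0.18 over all genes. Above that all-gene median lay 15 of 19 lysosome, 2 of 6 proton pump and 3 of 22 autophagy genes. The median coefficient of variation left after counting variance was subtracted was 17.4%, 9.23% and 5.30%, against 10.9% over all genes, so the order was the same once read depth was taken into account. The order also held in each of the 4 sets of 3 replicates: the lysosome median ranged from 0.18 to 0.31, the proton pump median from 0.14 to 0.16 and the autophagy median from 0.08 to 0.10. Leaving the 10 hydrolases out, a choice made after seeing the data, lowered the lysosome median from 0.25 to 0.19. No test was made of the difference between subgroups, because the genes of a subgroup share the same 4 samples.

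The replicates in which the subgroups were high or low also differed. The median lysosome gene was shifted from its own mean by 0.26, -0.08, -0.18 and 0.08 on the log2 scale in replicates 1 to 4. Each shift depends on which replicates set the mean: without replicate 1 the lysosome shift in replicate 2 was 0.00, and without replicate 3 the shifts in replicates 1, 2 and 4 were 0.15, -0.20 and 0.02. For the proton pump the shifts over all 4 replicates were 0.11, -0.10, -0.14 and 0.08, in the same order of signs. The mitochondrial share of reads was lower in replicates 1 and 4 (7.63% and 7.74%) than in 2 and 3 (12.8% and 9.65%). When those genes were not counted in the total, the shift in replicate 2 was -0.03 for lysosome and -0.04 for pump genes, and each of these subgroups kept its sign in every replicate. For autophagy the shifts were -0.01, -0.02, 0.04 and 0.03, close to those of all genes, -0.02, -0.02, 0.03 and 0.02. Without the hydrolases the lysosome shift was 0.05 in place of 0.26 in replicate 1 and -0.02 in place of -0.18 in replicate 3. As a share of all reads, the 19 lysosome genes took 1.09%, 0.866%, 0.782% and 0.964%, a mean of 0.926 ± 0.134% (SD, n = 4). Their 95% Wilson intervals, which cover counting error only, did not overlap between any replicates (1.09% to 1.10% in replicate 1, 0.778% to 0.786% in replicate 3). The pump genes took 0.105 ± 0.0116% and the autophagy genes 0.227 ± 0.0108% (SD, n = 4), the latter with the smallest spread for their size. The 47 genes together took 1.44%, 1.18%, 1.10% and 1.31% of reads.

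Markers of the proximal tubule moved with the hydrolases in their extremes. Of the proximal tubule list, 10 of 11 markers were lowest in replicate 3 and 7 of 11 highest in replicate 1; the median shifts were 0.47, 0.13, -0.61 and 0.10 on the log2 scale. Summed, these markers had 7133, 5730, 3599 and 5735 CPM in replicates 1 to 4. Distal nephron markers shifted by -0.09, -0.06, 0.05 and 0.11, with 4 of 7 lowest and 2 of 7 highest in replicate 1, and summed to 649, 495, 598 and 564 CPM. Intercalated cell markers shifted by -0.05, 0.37, 0.15 and -0.35. Podocyte markers were highest in replicate 1 and lowest in replicate 2, at a sum of 12356.5, 6820, 9054 and 10998 CPM. Mesangial markers shifted by 0.09, -0.26, -0.04 and 0.24, so that both podocyte and mesangial markers had the sign of the hydrolases in each replicate, whereas proximal tubule markers differed in sign from them in replicate 2. Macrophage and leukocyte markers had shifts of -0.25, 0.18, 0.10 and -0.02, opposite in sign in each replicate to the shifts of the hydrolases (0.33, -0.08, -0.32 and 0.10). The same held for endothelial markers, with shifts of -0.18, 0.05, 0.21 and -0.07 and sums of 5195, 5978, 6838 and 5606 CPM; 5 of 7 were lowest in replicate 1 and 5 of 7 highest in replicate 3. The part of these cell types in the hydrolase and proton pump values was not tested.

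**Figure D4:**
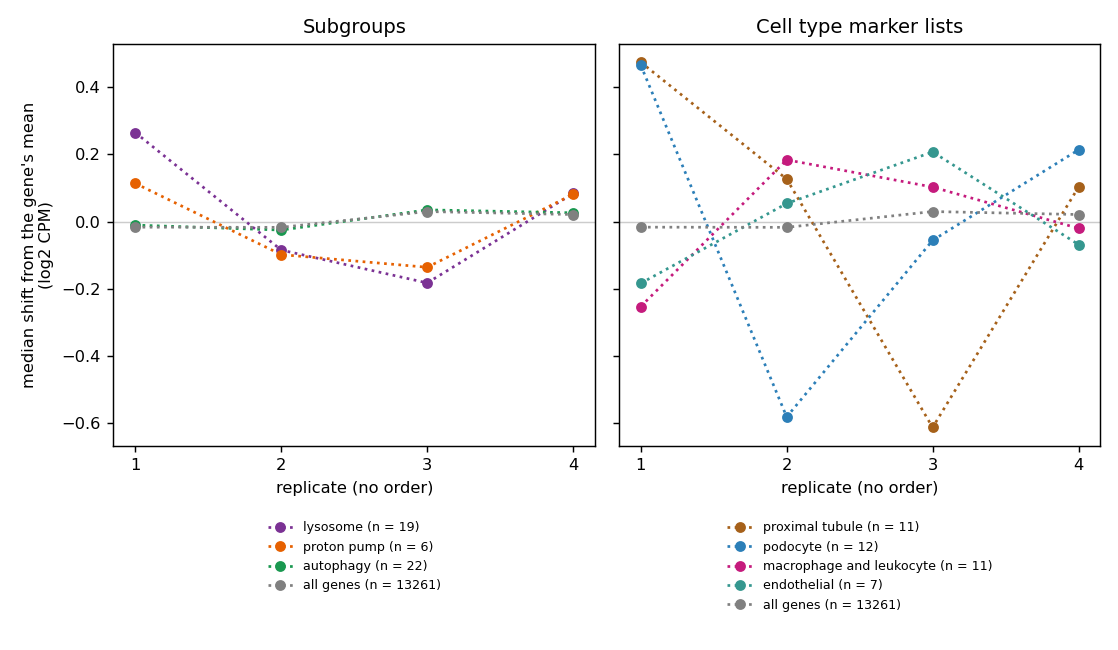
The vertical axis is the median, over the genes of a list, of log2 CPM in a replicate minus the gene's mean over 4 replicates; the horizontal axis is the replicate, which has no order, and dotted lines only join points of 1 list. In the left panel lysosome genes are at 0.26 in replicate 1 and -0.18 in replicate 3 while autophagy genes stay by the all-gene points; in the right panel proximal tubule and podocyte markers are high in replicate 1 and low in replicates 3 and 2, respectively.

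Among other genes of the same pathways the autophagy genes again had the lowest median SD, and that of the other lysosome genes lay below the all-gene median. Of 58 other lysosome genes listed, 53 were measured and 44 (83.0%) passed the counting test, against 69.5% of all genes; their median SD was 0.15 on the log2 scale, against 0.18 over all genes and 0.25 for the 19 lysosome genes above. Of the 53, 21 (39.6%) lay above the all-gene median SD. In replicate 3, 25 (47.2%) were lowest, against 19.6% of all genes, and in replicate 2, 18 (34.0%) against 31.5%. As many were highest in replicate 4 as in replicate 1, 21 (39.6%) each, against 21.4% and 27.7% of all genes. Rragd, a GTPase that helps recruit mTORC1 to the lysosome, had 16.4, 11.7, 5.80 and 8.72 CPM. Tpcn2, an endolysosomal ion channel, had 12.2, 29.7, 25.4 and 20.8 CPM, lowest where Rragd was highest. Rragc, from the same GTPase family as Rragd, had 84.5, 81.7, 81.8 and 84.5 CPM. Rragc was thus even across replicates, with an SD of 0.03 on the log2 scale beside 0.64 for Rragd.

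Of 18 other pump genes, 17 were measured, 14 (82.4%) passed the counting test, against 69.5% of all genes, and their median SD was 0.15. The fixed-trend test named 1 of the 17, Atp6v0a4, against 7.59% of all genes, so nothing is read from that count. Atp6v0a4 had 127, 100.3, 70.2 and 100.1 CPM, highest in replicate 1 and lowest in replicate 3. Atp6v1g3 and Atp6v0d2, subunits found mainly in intercalated cells of the collecting duct, had 8.70, 11.0, 9.71 and 5.64 CPM and 3.32, 4.63, 4.10 and 2.56 CPM. Both were highest in replicate 2 and lowest in replicate 4, unlike any of the 6 pump genes of the set. Atp6v1e1, a broadly expressed V1 subunit, had 97.2, 90.1, 88.4 and 93.4 CPM. Of 42 other autophagy genes, 41 were measured and 25 (61.0%) passed the counting test, against 69.5% of all genes. None of them passed the fixed-trend test, against 7.59% of all genes, and their median SD was 0.11. The mitophagy receptor Bnip3 had 59.5, 45.2, 34.6 and 47.2 CPM, with replicates 1 and 3 at the extremes as for Lgmn. Vps41, a tethering subunit for fusion with lysosomes, had 77.4, 50.7, 54.1 and 67.8 CPM. Rab7a, the GTPase of late endosomes, had 305, 295, 293 and 295 CPM and hardly varied.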

How the data were processed

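Polyadenylated RNA of sieved glomeruli was sequenced from stranded libraries over 2 lanes, per the labels' protocols and the series' design. HISAT2, featureCounts (Subread), limma and build Rnor_6.0 are named in the submitters' processing notes, without roles. The deposited table holds log2 values. The values themselves show the unit to be log2 of CPM after adding 0.5 reads: 100% of them return a whole number of reads within 0.01 reads (largest deviation 0.00071). Of 13265 rows, 4 with displaced cells were left out, and 116 that share a symbol were not used by symbol. The number of value columns of no sample was 0. Depth was 13566962 to 16207027 reads, so counting error is small beside the spread between replicates for most of the 47 genes.

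Computed here were CPM, SDs of log2 CPM, a chi-square test of reads against Poisson sampling (3 degrees of freedom), limma's (3.58.1) F test of a gene's variance around its mean log2(CPM + 1) against an abundance trend, and, as an alternative, a Pearson statistic at a dispersion trend fixed in 40 bins of mean reads. P-values were adjusted by Benjamini-Hochberg over 13261 genes, threshold 0.05. The tests were checked on simulated data. The design named counts or recovered reads for the counting test; recovered reads were used. Alternatives were other scalings, pseudocounts, filters, a robust prior, other summaries and leaving out each replicate. Gene lengths were not used here, so levels are not compared between genes. Promoters came from RefSeq (GRCr8), by symbol.

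The 47 genes, the lists and the tests were chosen with earlier results of these data known. Replicate numbers follow accession order and pair nothing. Values in every replicate are given for transcription factors, ATG8 genes and receptors. In each other role they are given for the highest, lowest, most and least variable gene. They are also given for genes of the set called by an excess-variance test, and for Lamp1, Lamp2, Ctsd, Ctsl, Becn1, Atg5, Atg7 and Ulk1. The other pathway lists have them for the 2 most variable genes and the least variable. Outside this rule, values are given for Npc2, Mcoln1, Ulk2, Atp6v0a4 and some intercalated cell markers. Fixed-trend calls among the other lysosome genes are not reported here.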

Additional observations from a re-analysis of the deposited data

Results flagged for a closer look

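For 3 genes, 1 replicate stood apart from the other 3, the gap to its nearest neighbour taking more of the whole range of log2 CPM than Dixon's 95% critical value for 4 samples. For Ctsd the gap was 0.873 of the range, with replicate 1 low. For Scarb2 it was 0.836, with replicate 3 high, within a range of only 1.08-fold. For Map1lc3b it was 0.931, with replicate 2 high. Of 50 values examined (47 genes and 3 subgroup shares), 3 passed, where chance gives 2.5.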

How the results depend on the processing

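Of the recomputed subgroup values and counts of calls, 173 stayed within 1 SD or 1.5 times of the reported value and 5 moved. When mitochondrial genes were not counted in library totals, the autophagy shift was -0.0396 in replicate 1 and 0.0296 in replicate 2 (from -0.01 and -0.02), and the autophagy share of reads was 0.25%. The fixed-trend test named 2 genes where limma's named 0. With hydrolases left out, chosen after seeing the data, the lysosome shift was 0.0537 in replicate 1 and -0.0223 in replicate 3. Leaving out each replicate gave 0 to 2 genes by the fixed-trend test (0 without replicate 4) and 35 to 38 of 47 by the counting test. Over all genes the fixed-trend test then called 586 to 705 of 13261, and the counting test 55.2% to 65.4%. Among single genes, 24 recomputed means and 38 SDs moved, and 352 means and 338 SDs did not; 30 of the 38 SDs were those with a replicate left out. Hydrolases highest in replicate 1 numbered 8 under each scaling, and 8 or 9 were lowest in replicate 3. No paired analysis was possible because there is a single group. Levels per gene length, with their alternatives, were not run. Depth limits the statements on Atg5, Atg7, Atg12, Atg14, Wipi1 and Wipi2; the number of replicates limits the others.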

Other observations

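Several genes known from intercalated cells of the collecting duct followed another order of replicates than the 6 pump genes of the set. Of 6 intercalated cell markers, all measured, 4 were highest in replicate 2 (21.3% of all genes) and 4 were lowest in replicate 4 (13.9% of all genes). The anion exchanger Slc26a4 had 13.0, 18.3, 15.3 and 11.3 CPM, and the transcription factor Foxi1 3.61, 5.06, 2.93 and 3.15 CPM. Slc4a1, the band 3 anion exchanger, ran against the list with 27.5, 24.0, 32.1 and 36.7 CPM. The pump subunit Atp6v1b1 had 17.9, 17.5, 22.6 and 13.8 CPM. Atp6v0a4, a pump subunit also known from these cells but not on the list, did not follow it and had the extremes of Atp6v1a, with replicate 1 highest and replicate 3 lowest. These genes were singled out after their values were seen, and no test was made.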
